A study of Danio rerio with 12 samples.

Results

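The response of whole zebrafish larvae to T0901317, a synthetic agonist of the liver X receptor (LXR), was measured against larvae given the DMSO solvent alone. The compared group means rest on 7 of the 12 arrays of the series, 3 of T0901317 larvae and 4 of DMSO larvae, which were taken by their titles. The series asks which genes respond to LXR activation in larvae. Of its other arrays, 4 hold larvae given GW3965, another LXR agonist, and 1 is T0901317 replicate 2, which the authors' design text leaves out. All larvae were wild-type fish of the WIK strain and no group carried a transgene or a mutation. Each replicate was the RNA of a pool of 30 larvae held in 3 mL of medium, exposed from day 4 after fertilization, given fresh compound after 24 h and collected on day 6. The medium of every group held 0.1% DMSO, and the labels give the T0901317 dose as 2 mM and that of GW3965 as 1 mM. These doses are printed as labelled, since a lost micro sign cannot be settled from the labels. No tissue was separated, so fewer cells of a type and less RNA per cell cannot be told apart for any gene below.

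LXR is a nuclear receptor that binds DNA with a retinoid X receptor (RXR) partner. Its natural ligands are oxysterols, which build up when a cell holds much cholesterol. In mammals the active receptor turns on genes that export cholesterol, move lipids between lipoproteins, desaturate fatty acids and limit uptake of low density lipoprotein (LDL), and it raises the lipogenic transcription factor Srebf1. Genes of cholesterol synthesis answer to a different transcription factor, the Srebf2 protein, which is released from the endoplasmic reticulum when membrane sterol runs low and is held there by Insig proteins.

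In the limma fit 23645 genes were tested, 12097 of them with a gene symbol. The 4 GW3965 arrays were part of this fit and entered the probe filter and the shared estimate of the spread between arrays. At an adjusted p under 0.05, 609 genes were called, 373 higher and 236 lower under T0901317, which is 2.58% of the genes tested (1.58% higher and 0.998% lower). Counts of calls in the gene lists below stand beside these shares, and a count near them is no result about its list. The called genes with a symbol numbered 272, 155 higher and 117 lower, and 2.25% of the tested genes with a symbol were called. Changes were mostly small: the median fold of the called genes was 1.68 for those higher and 1.54 for those lower, while 104 genes rose and 29 fell at least 2-fold. Without a fold or a correction, 3515 genes had a p under 0.05. Positive changes, called or not, were found in 13946 of the 23645 genes tested, and counts of positive changes in the lists below stand beside that. In all 609 called genes the T0901317 and DMSO arrays did not overlap, beside 12.5% of all genes tested. A lack of overlap in a called gene below therefore adds nothing to its call. The count of called genes was 258 without DMSO replicate 2, 349 without DMSO replicate 3, and 264, 392 and 297 without T0901317 replicates 1, 3 and 4. With the 2 compared groups alone in the fit it was 287, and 38 of the 104 called genes named by rule lost their call. Each gene was also refitted without each of the 11 arrays in turn and under up to 12 other alternatives of processing or model, and where a call ended the arrays or the number of alternatives are given with the adjusted p values there. All 3 T0901317 arrays lay on 1 slide and all 4 DMSO arrays on another, each slide scanned as a unit, so the treatment and the slide cannot be told apart. Across genes, 2 DMSO or 2 T0901317 arrays correlated at 0.988 to 0.993 and a DMSO with a T0901317 array at 0.984 to 0.992, while the array left out by the authors reached 0.951 to 0.957 with the others. Signals below are processed intensities scaled so that the 75th percentile of every array is 361 units, changes are on the log2 scale, given with the fit's standard error (n = 3 against 4), and T0901317 arrays are listed in the order of replicates 1, 3 and 4. A signal compares arrays for 1 probe and does not rank genes against each other.

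**Figure D1:**
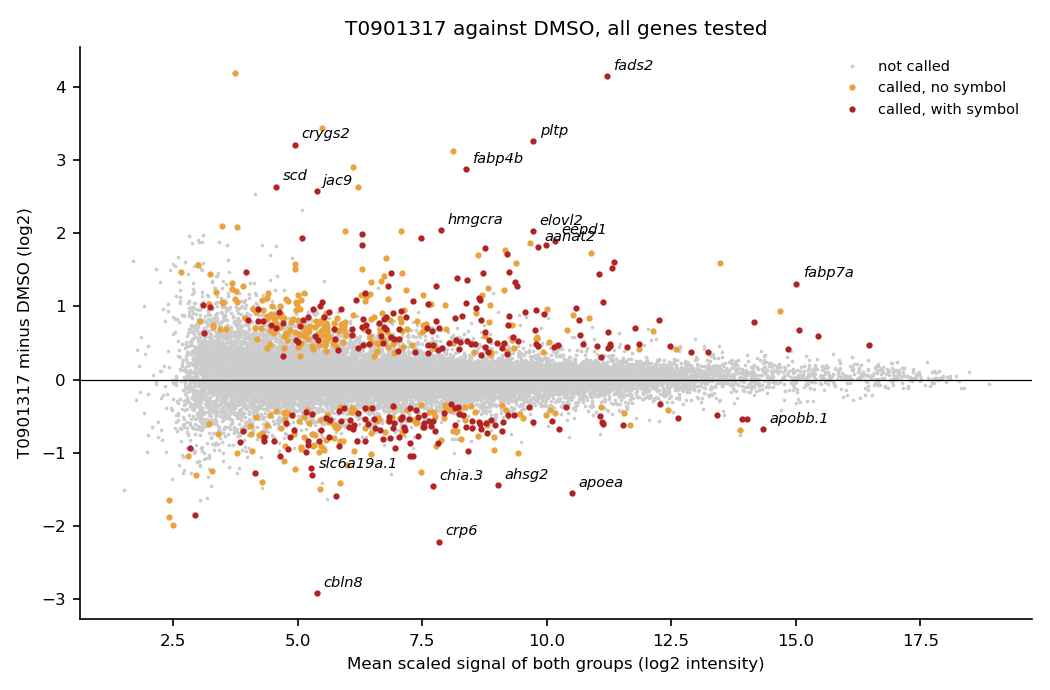
Change under T0901317 (vertical axis, log2 fold change against DMSO) of each of the 23645 genes tested, against the mean scaled signal of both groups (horizontal axis, log2 of intensity units). Grey points are genes that were not called, red points the 272 called genes with a symbol and orange points the 337 without one. The largest called rise with a symbol is fads2 and the largest such fall cbln8.

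The genes that carry the mammalian LXR program were tested first. The LXR gene of zebrafish, nr1h3, stood at 321, 279, 285 and 322 in DMSO and 445, 424 and 402 under T0901317, so that the groups did not overlap. It rose by 0.49 ± 0.09, adjusted p = 0.0238. This call was lost without DMSO replicate 2 or 3 or any 1 T0901317 array or under 3 of the 12 other alternatives (adjusted p 0.0518 to 0.0936). The other 10 measured members of the list of LXR and its partners, which were 6 RXR genes and 4 genes of corepressor or coactivator complexes, did not pass the test, and their changes ran from -0.36 for the histone deacetylase gene hdac3 to 0.22 for the coactivator gene ncoa2. The median of the list was 0.05, beside 0.04 over all genes tested.

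Of 18 measured known LXR targets, 10 rose, 1 fell and 7 did not pass, with a median change of 0.60. In 12 of the 18 every T0901317 array lay above every DMSO array, beside 7.97% of all genes tested. The signal of pltp, whose product moves phospholipids between lipoproteins, was 275, 279, 252 and 300.0 in DMSO and 2261, 2382 and 3391 under T0901317. It rose 9.55-fold (3.25 ± 0.19, adjusted p = 9.24e-06), and the lowest T0901317 array was far above the highest DMSO array. The stearoyl-CoA desaturase gene scd, whose enzyme makes monounsaturated fatty acids, read 9.30, 6.01, 10.31 and 14.5 in DMSO and 56.8, 60.6 and 60.6 under T0901317. It was higher by 2.63 ± 0.22, adjusted p = 0.000134, with DMSO signals so dim that 1 of the 4 arrays was not well above background. With normexp background correction, which here adds an offset of 50 to every signal and so shrinks changes of dim probes, the change of scd was 0.87. Its relative scdb read 129, 138, 161 and 142 in DMSO and 137, 106 and 151 under T0901317, the ranges overlapped, and the change of -0.13 ± 0.13 did not pass (adjusted p = 0.738).

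Among the other targets, eepd1, which in mouse and human macrophages promotes cholesterol efflux, went from 648, 623, 539 and 586 in DMSO larvae to 2274, 2331 and 2079.9 under T0901317. That rise was 1.90 ± 0.09, adjusted p = 2.36e-06, among the smallest adjusted p values of the named genes. The endothelial lipase gene lipg, whose enzyme cuts phospholipids of high density lipoprotein, read 1508, 1477, 1199 and 1835 in DMSO and 3737, 4556 and 5494 under T0901317 and rose by 1.61 ± 0.15, adjusted p = 0.000269. The gene mylipa encodes a ubiquitin ligase that sends the LDL receptor to degradation, and its signals were 1491, 1722, 1153 and 1728 in DMSO and 4368, 3946 and 4631 under T0901317. All 3 of its T0901317 arrays lay over 2-fold above the highest DMSO array, and the rise was 1.52 ± 0.14, adjusted p = 0.000245. The sterol exporter gene abcg1 stood at 46.3, 67.2, 48.0 and 57.5 in DMSO and 127, 124 and 119 under T0901317, which gave a rise of 1.19 ± 0.12, adjusted p = 0.000587 (0.75 with normexp). Of 4 measured genes of sterol efflux abcg1 was called, while abca1b, the other well-known exporter, read 24.4, 34.3, 38.5 and 32.9 in DMSO and 35.5, 47.3 and 33.9 under T0901317 and did not pass (0.26 ± 0.16, adjusted p = 0.537).

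The lipogenic transcription factor gene srebf1 read 87.5, 63.9, 63.5 and 76.1 in DMSO and 195, 150.1 and 181 under T0901317. No DMSO array reached a T0901317 array, and srebf1 rose by 1.27 ± 0.13, adjusted p = 0.000698. A regulator of acetyl-CoA carboxylase, mid1ip1l, rose less, by 0.45 ± 0.07, adjusted p = 0.0099, on signals of 2066, 2205, 2022 and 2146 in DMSO and 2889, 3033 and 2739 under T0901317. The call of mid1ip1l ended under 2 of the 12 other alternatives (adjusted p 0.0545 to 0.068). Target genes that did not pass included the lipoprotein lipase gene lpla (0.72 ± 0.20, adjusted p = 0.102), apoeb (0.31 ± 0.09, adjusted p = 0.118), arl4ca (-0.16) and arl4cb (-0.02), besides abca1b and scdb.

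The single target that fell was apoea, one of the zebrafish genes for apolipoprotein E, the protein that brings lipoprotein remnants to their receptors. Its signals were 2604, 2418, 2443 and 2509 in DMSO and 812, 882 and 870.2 under T0901317. The DMSO arrays lay within a narrow band and every T0901317 array was far below it, a fall by 1.55 ± 0.08, adjusted p = 6.68e-06. The paralog apoeb moved the other way without a call, from 27396, 27703, 24806 and 24691 to 34906, 33449 and 29183. In mammals apolipoprotein E is a gene that LXR turns on in macrophages and fat.

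**Figure D2:**
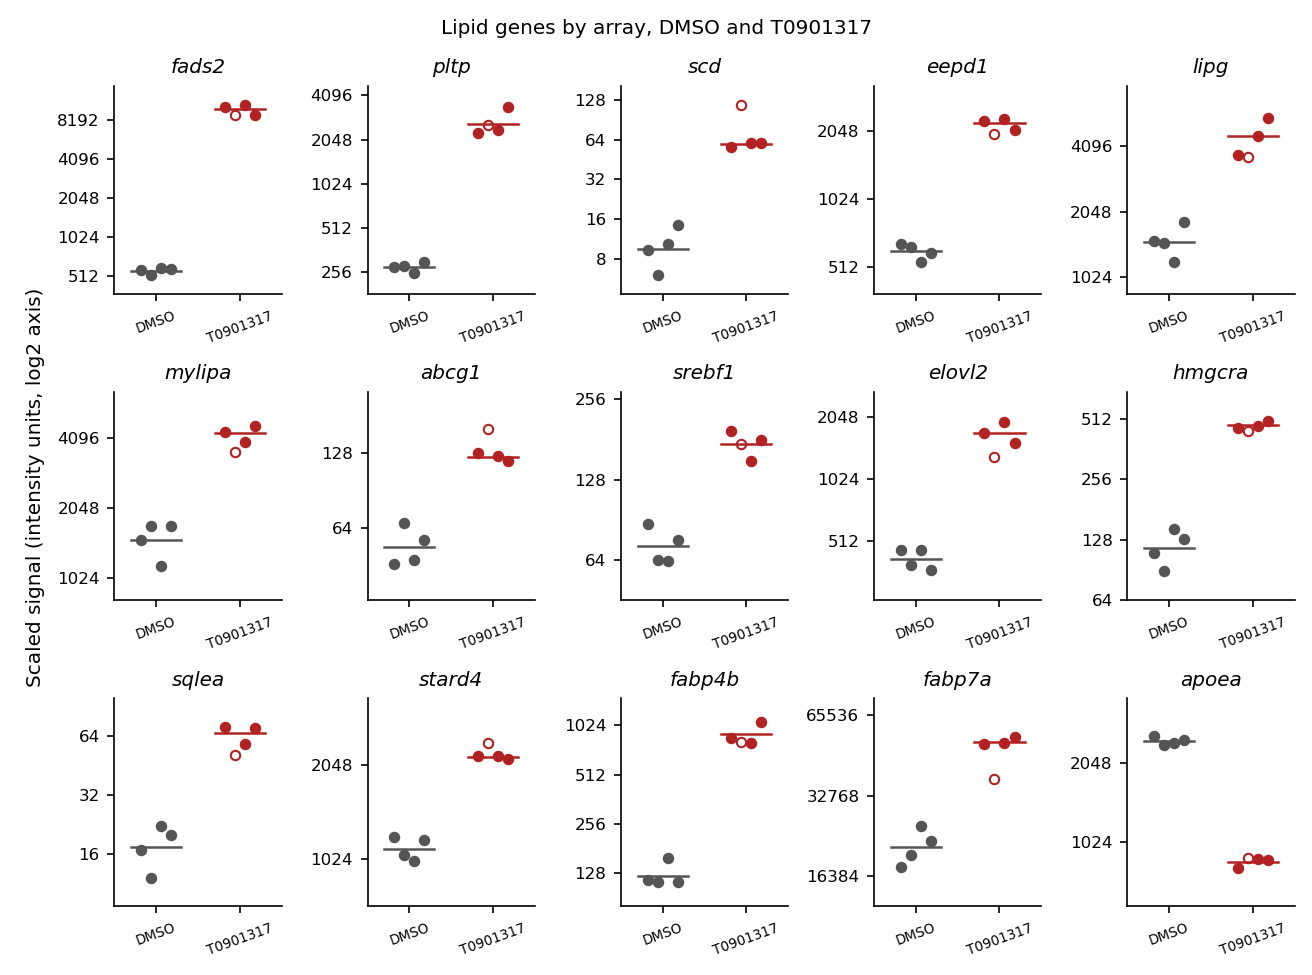
Scaled signal of 15 lipid genes by array (vertical axes, intensity units on a log2 axis) for the 4 DMSO arrays (grey) and the T0901317 arrays (red). Filled points are arrays in the fit, the open point is T0901317 replicate 2, which the authors left out, and lines are geometric means of the filled points. In each panel the filled groups do not overlap, as in all 609 called genes, and apoea alone among the 15 is lower under T0901317.

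In the early, mevalonate arm of cholesterol synthesis 5 of 9 measured members rose, 0 fell and 4 did not pass (median 0.37). From squalene to cholesterol 9 of 12 rose, 0 fell and 3 did not pass, and the median was 1.29, or 0.73 with normexp. The count for the mevalonate arm was 2 to 3 without DMSO replicate 1, 2 or 4 or any 1 T0901317 array or GW3965 replicate 1, 3 or 4, while that of the later steps was 8 or 9 on leaving out any 1 array. The rate-limiting enzyme of the pathway is encoded by hmgcra, which read 109, 89.3, 144 and 129.7 in DMSO and 462, 472 and 498 under T0901317. It rose 4.105-fold (2.04 ± 0.15, adjusted p = 4.08e-05), while its paralog hmgcrb read 43.0, 58.7, 63.5 and 48.8 in DMSO and 63.4, 65.5 and 76.6 under T0901317 and did not pass (0.37 ± 0.16, adjusted p = 0.299).

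Further along the mevalonate arm, the decarboxylase gene mvda went from 134, 132, 159 and 137 to 329, 358 and 335, a rise of 1.28 ± 0.11, adjusted p = 0.000188. Mevalonate kinase, mvk, rose by 0.74 ± 0.13, adjusted p = 0.0171 (0.41 with normexp), hmgcs1, which supplies the substrate of hmgcra, by 0.48 ± 0.10, adjusted p = 0.0351 (0.80 with its probes averaged), and fdps, which makes farnesyl diphosphate, by 0.34 ± 0.08, adjusted p = 0.0443. These 3 calls were less firm. The call of mvk ended without DMSO replicate 2 or T0901317 replicate 1 or 4 or under 2 of the 12 other alternatives (adjusted p 0.0553 to 0.0721). That of hmgcs1 ended without DMSO replicate 1, 2 or 4 or any 1 T0901317 array or GW3965 replicate 1, 3 or 4 or under 4 of the 12 other alternatives (adjusted p 0.0506 to 0.223). For fdps this was without DMSO replicate 1, 2 or 4 or any 1 T0901317 array or any 1 GW3965 array or under 6 of the 12 other alternatives (adjusted p 0.0526 to 0.199). The isomerase gene idi1 (-0.04), acat2 (0.27) and the squalene synthase gene fdft1 (-0.17) did not pass. For fdft1 a single DMSO array stood at 61.9 with the other 3 between 13.7 and 16.4, so its change had a standard error of 0.43.

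The steps that commit squalene to sterols showed larger changes. Squalene epoxidase, sqlea, read 16.8, 12.2, 22.4 and 20.1 in DMSO and 71.3, 58.0 and 70.0 under T0901317. The gene of lanosterol synthase, lss, which closes the sterol rings, read 42.5, 28.7, 57.4 and 34.98 in DMSO and 143, 169.8 and 158 under T0901317. Neither pair of groups overlapped, and the rises were 1.93 ± 0.18, adjusted p = 0.000269 for sqlea and 1.99 ± 0.21, adjusted p = 0.000614 for lss. Next come cyp51, which removes a methyl group from lanosterol (1.46 ± 0.21, adjusted p = 0.00606), and the methyl sterol oxidase gene msmo1 (1.47 ± 0.14, adjusted p = 0.000246). Further on, sc5d, which sets a ring double bond, went from 276, 230.2, 288 and 229.7 to 706, 733 and 666 (1.46 ± 0.11, adjusted p = 6.56e-05). Values for the isomerase ebp (1.12 ± 0.14, adjusted p = 0.00239), hsd17b7 (1.07 ± 0.14, adjusted p = 0.003) and nsdhl (0.61 ± 0.11, adjusted p = 0.0229) were smaller. With normexp the rises of dim members were over 1.5 times smaller, at 0.68 for sqlea, 1.01 for lss, 0.92 for cyp51 and 0.33 for nsdhl. Calls ended for cyp51 under 1 of the 12 other alternatives (adjusted p = 0.0806) and for hsd17b7 under 1 of the 12 other alternatives (adjusted p = 0.0577). The nsdhl call was lost without DMSO replicate 2 or T0901317 replicate 3 or 4 or under 4 of the 12 other alternatives (adjusted p 0.0562 to 0.171). The reductase genes that did not pass were dhcr7 (0.24 ± 0.16, adjusted p = 0.565), tm7sf2 (0.25 ± 0.09, adjusted p = 0.215) and lbr (-0.11 ± 0.19, adjusted p = 0.882).

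Of 12 measured genes that sense, take up or store sterols 5 rose and 0 fell (median 0.38), a count that was 3 without DMSO replicate 2 or T0901317 replicate 3 or GW3965 replicate 3. Besides mylipa, insig1, which holds the Srebf proteins in the endoplasmic reticulum, went from 604, 685, 575 and 707 to 1115, 1272 and 1318 (0.94 ± 0.10, adjusted p = 0.000666). The sterol carrier gene stard4 read 1201, 1052, 1010.0 and 1174 in DMSO and 2191, 2192 and 2149 under T0901317, a rise of 0.98 ± 0.08, adjusted p = 0.000109. Both insig1 and stard4 kept their calls under all alternatives tried. The esterifying enzyme gene soat1 (0.59 ± 0.12, adjusted p = 0.0358) and srebf2, the regulator of the synthesis genes (0.38 ± 0.09, adjusted p = 0.0443; 0.67 with its probes averaged), were also called. The other probe of soat1 had a negative change of -0.28, and the mean over its probes was 0.15. The call of soat1 ended without DMSO replicate 2 or 3 or T0901317 replicate 3 or 4 or GW3965 replicate 3 or under 4 of the 12 other alternatives (adjusted p 0.0526 to 0.933). That of srebf2 ended without DMSO replicate 1, 2 or 4 or any 1 T0901317 array or any 1 GW3965 array or under 9 of the 12 other alternatives (adjusted p 0.0511 to 0.211). The LDL receptor gene ldlra did not pass (0.51 ± 0.16, adjusted p = 0.158).

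Fatty acid desaturation and elongation held the largest change of all genes with a symbol. The desaturase gene fads2, whose enzyme in zebrafish inserts double bonds into long polyunsaturated fatty acids, read 569.8, 518, 593 and 579.5 in DMSO and 10273, 10725 and 8993 under T0901317. It was 17.7-fold higher (4.14 ± 0.11, adjusted p = 3.32e-08). Signals of elovl2, which lengthens the same fatty acids, were 463, 392, 461 and 370.3 in DMSO and 1709.9, 1927 and 1529.8 under T0901317, a 4.09-fold rise (2.03 ± 0.13, adjusted p = 1.82e-05). On this list of 19 measured genes scd rose too, elovl8a fell and 15 did not pass, and the list median was -0.01. The fall of elovl8a, a fish elongase gene, was from 231, 289, 294 and 301 to 178, 149 and 186 (-0.71 ± 0.12, adjusted p = 0.0117), and its call was lost under 1 of the 12 other alternatives (adjusted p = 0.0638). Elongase genes of the same list outside these, such as elovl5 (-0.10 ± 0.09, adjusted p = 0.704) and elovl6 (-0.17 ± 0.10, adjusted p = 0.505), did not pass.

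In de novo lipogenesis 3 of 8 measured genes rose, which were srebf1, mid1ip1l and pklr, and 0 fell. The pyruvate kinase gene pklr read 27352, 25849.7, 26579 and 28536 in DMSO and 44479 and 41796 under T0901317, with T0901317 replicate 4 missing because its spot was rejected as an outlier, and it rose by 0.67 ± 0.13, adjusted p = 0.0262. That call was lost without DMSO replicate 2 or 3 or T0901317 replicate 1 or 3 or under 3 of the 12 other alternatives (adjusted p 0.0583 to 0.151). Some acyl-CoA and phospholipid genes outside the lists were chosen after their values were seen and are given by value. The acyl-CoA synthetase gene acsl4a, whose human counterpart prefers arachidonic acid, went from 1349.7, 1369.7, 1103 and 1350.1 to 3283, 3496 and 3688 (1.44 ± 0.09, adjusted p = 1.82e-05). Of 5 measured acyl-CoA synthetase genes acsl4a and acsl1b rose and the other 3, acsl1a, acsl4b and acsl5, did not pass, and the median of the 5 was -0.01. Acsl1b rose by 0.50 ± 0.11, adjusted p = 0.0405, and its call was lost without DMSO replicate 2, 3 or 4 or any 1 T0901317 array or GW3965 replicate 1 or 4 or under 4 of the 12 other alternatives (adjusted p 0.0578 to 0.218). The gene pcyt1bb, for the enzyme that controls phosphatidylcholine synthesis, read 93.5, 82.6, 94.0 and 95.0 in DMSO and 344, 416 and 293 under T0901317 and rose by 1.93 ± 0.12, adjusted p = 1.82e-05.

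Both pank1 genes, whose enzyme starts the synthesis of coenzyme A, rose by like amounts. The signals of pank1b were 455, 487, 447 and 423 in DMSO and 820.3, 859 and 797 under T0901317 (0.87 ± 0.07, adjusted p = 0.000109), and those of pank1a 234, 247, 218 and 239.7 in DMSO and 435, 458 and 393 under T0901317 (0.87 ± 0.10, adjusted p = 0.00105), while pank2 did not pass (-0.11). Serine palmitoyltransferase, which starts sphingolipid synthesis, has several subunit genes. Of these sptlc2b (0.65 ± 0.08, adjusted p = 0.00259) and sptlc2a (0.43 ± 0.07, adjusted p = 0.00989) rose, and sptlc1 (-0.01) and sptlc3 (0.18) did not pass. The peroxisomal fatty acid transporter gene abcd3a went from 2961, 2685, 2678 and 2687 to 4106, 5205 and 4186 (0.70 ± 0.09, adjusted p = 0.00332). One gene of the cholesterol hydroxylase family that makes an oxysterol in mammals, ch25hl1.1, rose by 0.68 ± 0.12, adjusted p = 0.0144, which was no longer called without T0901317 replicate 1 or 3 or under 2 of the 12 other alternatives (adjusted p 0.0531 to 0.0661). The calls of pank1a, pank1b, sptlc2b and abcd3a held under all alternatives, and that of sptlc2a ended under 2 of the 12 other alternatives (adjusted p 0.0586 to 0.101).

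Fatty acid binding proteins carry fatty acids inside cells, each in its own tissues, and 5 of 10 measured members rose while 1 fell. The count was 2 to 3 without DMSO replicate 2, 3 or 4 or any 1 T0901317 array. The largest change was that of fabp4b, a member of the adipocyte type, which read 115, 113, 157 and 112 in DMSO and 861, 794 and 1077 under T0901317 (2.88 ± 0.23, adjusted p = 7.84e-05). The brain type member fabp7a, a marker of radial glia, read 17744, 19615, 25235 and 22229 in DMSO and 51072, 51241 and 54049.6 under T0901317, with no overlap (1.31 ± 0.12, adjusted p = 0.000246). Smaller rises were called for fabp10a, the liver member of fish (0.47 ± 0.10, adjusted p = 0.0428), fabp3, the heart and muscle type (0.42 ± 0.08, adjusted p = 0.0217), and fabp7b (0.37 ± 0.08, adjusted p = 0.0498). The member that fell, fabp1a, of the type found in liver and intestine, went from 157, 178, 165 and 190.0 to 107, 80.4 and 85.5 (-0.93 ± 0.18, adjusted p = 0.0253). Those 4 calls ended in part of the alternatives. For fabp10a this was without DMSO replicate 2, 3 or 4 or any 1 T0901317 array or GW3965 replicate 1 or 4 or under 6 of the 12 other alternatives (adjusted p 0.0543 to 0.19). For fabp3 it was without DMSO replicate 2 or 3 or any 1 T0901317 array or under 2 of the 12 other alternatives (adjusted p 0.0561 to 0.13). The call of fabp7b was lost without any 1 DMSO array or any 1 T0901317 array or any 1 GW3965 array or under 8 of the 12 other alternatives (adjusted p 0.0515 to 0.204). The fabp1a call was lost without DMSO replicate 2, 3 or 4 or T0901317 replicate 3 or 4 or under 2 of the 12 other alternatives (adjusted p 0.0516 to 0.164). The intestinal genes fabp2 (0.20), fabp6 (0.07) and fabp1b.1 (-0.04) did not pass, and neither did fabp4a (0.25).

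Lipoprotein genes moved in both directions: 4 of 19 measured members rose, 5 fell and 10 did not pass (median -0.13). Besides pltp and lipg, the rises were apoa4a and cetp. The signals of apoa4a, of the intestinal apolipoprotein A-IV family, were 762, 761, 695 and 685 in DMSO and 1193, 1456 and 1408 under T0901317 (0.89 ± 0.09, adjusted p = 0.000378). Its relatives apoa4b.1 and apoa4b.2 went down. Signals of apoa4b.1 were 22160.1, 18695, 19558 and 20283 in DMSO and 12781, 14824 and 13920.3 under T0901317, and those of apoa4b.2 were 20573, 17971, 18396 and 18592 in DMSO and 12558, 13131 and 13139.5 under T0901317. The groups did not overlap for either gene, which fell by 0.54 ± 0.08, adjusted p = 0.00722 and by 0.54 ± 0.07, adjusted p = 0.0029. The main structural apolipoprotein of the lipoprotein particle is apolipoprotein B, and its gene apobb.1 read 28332, 25435, 26816 and 24407 in DMSO and 16811, 18924 and 13855 under T0901317 (-0.68 ± 0.10, adjusted p = 0.00858).

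The remaining fall on that list was apoc4, of the apolipoprotein C type (-0.68 ± 0.12, adjusted p = 0.0148; -0.34 with normexp), and its call was lost without T0901317 replicate 1 or 4 or under 3 of the 12 other alternatives (adjusted p 0.0551 to 0.0843). The cholesteryl ester transfer gene cetp rose by 0.48 ± 0.11, adjusted p = 0.0477, a call that was lost without any 1 DMSO array or any 1 T0901317 array or any 1 GW3965 array or under 7 of the 12 other alternatives (adjusted p 0.0507 to 0.14). With replicate 4 of every group left out, an alternative chosen after the data were seen, the calls of apoa4b.1 and apoa4b.2 ended and the list kept 5 calls. Over the enterocyte list the median change was -0.36 and over the liver plasma protein list -0.13, and their part in these falls was not tested. The microsomal transfer protein gene mttp (-0.15) and apoa1a (-0.17) did not pass.

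In the bile acid list 1 of 11 measured genes was called. It was cyp7a1, the rate-limiting enzyme of bile acid synthesis, which read 524, 428, 414 and 322 in DMSO and 1245, 1377 and 665 under T0901317 and rose by 1.33 ± 0.23, adjusted p = 0.0163. Its groups did not overlap, and T0901317 replicate 4 was far below the other 2 arrays of its group. The call was lost without T0901317 replicate 1 or 3 or under 2 of the 12 other alternatives (adjusted p 0.0541 to 0.141), and the mean over its probes was 0.80. In triglyceride storage the last enzyme of synthesis, dgat2, fell from 1467, 1249, 1307 and 1366 to 814, 975 and 954 (-0.56 ± 0.11, adjusted p = 0.0284). It was the single call of that list. Of the 17 measured members 0 were called higher, 11 had a positive change and the median was 0.06. The dgat2 call was lost without any 1 DMSO array or any 1 T0901317 array or under 3 of the 12 other alternatives (adjusted p 0.0506 to 0.151).

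In fatty acid oxidation 0 of 30 measured genes rose, 2 fell and 28 did not pass. The list median was -0.14, 7 members had a positive change, and in 8 members the T0901317 arrays lay below all DMSO arrays, beside 4.58% of all genes tested. The kinase gene pdk4, which shuts pyruvate out of the mitochondrial cycle, read 48.3, 57.8, 44.8 and 52.7 in DMSO and 26.3, 28.6 and 27.01 under T0901317 (-0.89 ± 0.17, adjusted p = 0.0223). The trifunctional protein gene hadhb fell by 0.33 ± 0.07, adjusted p = 0.0462. The count of the list was 0 to 1 without DMSO replicate 1, 2 or 3 or any 1 T0901317 array or any 1 GW3965 array. The hadhb call was lost without DMSO replicate 1, 2 or 3 or any 1 T0901317 array or any 1 GW3965 array or under 5 of the 12 other alternatives (adjusted p 0.0622 to 0.269). The pdk4 call was lost without DMSO replicate 2 or any 1 T0901317 array or under 2 of the 12 other alternatives (adjusted p 0.052 to 0.227), and its change under normexp was -0.33. The value of cpt1aa (-0.03 ± 0.13, adjusted p = 0.952), which admits fatty acids to mitochondrial oxidation, did not pass.

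**Figure D3:**
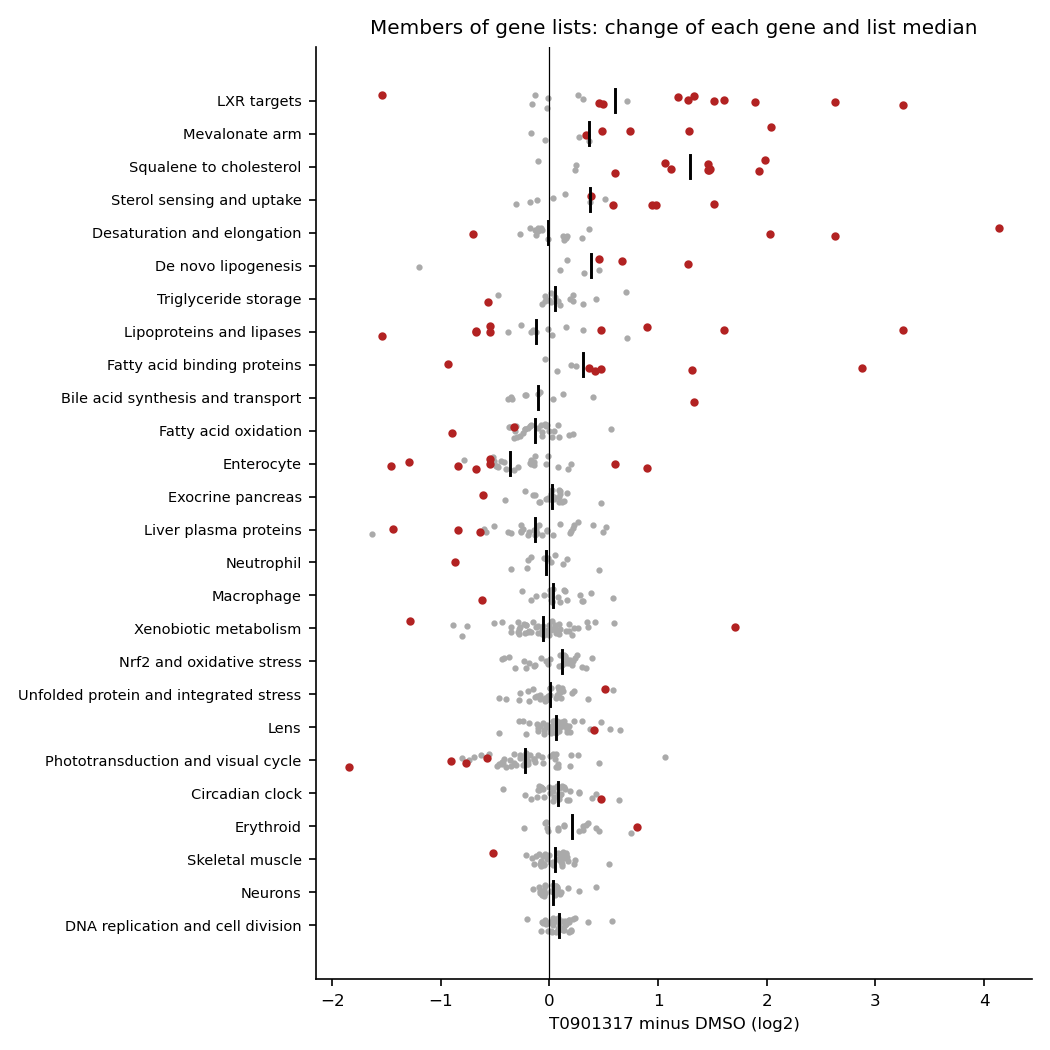
Log2 fold change of T0901317 against DMSO (horizontal axis) for the measured members of 26 gene lists (vertical axis). Each point is a gene, red if called and grey if not, and the black bar is the list median. The steps from squalene to cholesterol have 9 of 12 members called and a median of 1.29 (0.73 with normexp), while the enterocyte median is -0.36 and the neuron median 0.03.

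Markers of the gut lining had mostly negative changes. Of 30 measured enterocyte genes 6 fell, 2 rose and 22 did not pass, the median was -0.36, and 5 members had a positive change. In 12 of the 30 every T0901317 array lay below every DMSO array, beside 4.58% of all genes tested. The falls of apoa4b.1 and apoa4b.2 and the rise of apoa4a are counted in the lipoprotein list too. The count of calls in the enterocyte list was 5 without T0901317 replicate 1, and it was 3 with replicate 4 of every group left out. The transporter of neutral amino acids slc6a19a.1 read 71.2, 57.0, 61.2 and 58.4 in DMSO and 23.7, 28.5 and 23.5 under T0901317 (-1.30 ± 0.13, adjusted p = 0.00051; -0.48 with normexp). Chitinases break down chitin in the gut, and 3 of the 6 measured chitinase genes fell while 0 rose. Signals of chia.3 were 336, 263, 369 and 464 in DMSO and 107, 144 and 136 under T0901317 (-1.45 ± 0.24, adjusted p = 0.0117), and those of its relative chia.5 were 127, 107, 115 and 91.8 in DMSO and 50.3, 73.7 and 61.9 under T0901317 (-0.84 ± 0.14, adjusted p = 0.0145; -0.45 with normexp).

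The remaining fall, chia.6, a neighbour of chia.5 in the genome, went from 626, 505, 495 and 474 to 278, 417 and 301 (-0.67 ± 0.15, adjusted p = 0.0458). The call of chia.3 ended without T0901317 replicate 1 (adjusted p = 0.0576) and that of chia.5 without T0901317 replicate 1 or under 2 of the 12 other alternatives (adjusted p 0.0533 to 0.0644). That of chia.6 ended without any 1 DMSO array or T0901317 replicate 1 or 4 or any 1 GW3965 array or under 5 of the 12 other alternatives (adjusted p 0.0541 to 0.19). Changes of chia.1 (-0.45 ± 0.13, adjusted p = 0.112) and chia.2 (-0.29 ± 0.10, adjusted p = 0.21) did not pass, nor did chia.4 (-0.04). Against the direction of the list, afp4, a member of the type IV antifreeze protein family, read 42113, 36385, 35288 and 32829.5 in DMSO and 53748, 59493 and 52972 under T0901317 and rose by 0.60 ± 0.10, adjusted p = 0.0121, a call that was lost under 1 of the 12 other alternatives (adjusted p = 0.0912). Among the 22 members that did not pass were vil1 (-0.01 ± 0.12), cdh17 (-0.14 ± 0.11) and cdx1b (-0.14 ± 0.15), which were picked without a rule. Outside the list, the brush border genes pls1 (-0.55 ± 0.12, adjusted p = 0.0441) and nherf4b (-0.55 ± 0.09, adjusted p = 0.0137) fell. Both were chosen after their values were seen. The pls1 call was lost without any 1 array or under 5 of the 12 other alternatives (adjusted p 0.0504 to 0.344). That of nherf4b was lost without T0901317 replicate 1 or under 2 of the 12 other alternatives (adjusted p 0.0684 to 0.478).

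Outside the lists, alpi.2 and aoc1 were chosen after their values were seen. The intestinal alkaline phosphatase gene alpi.2 went from 459.6, 350.2, 384 and 481 to 247, 261 and 290.1 (-0.65 ± 0.12, adjusted p = 0.021), and the gene aoc1, for an enzyme that degrades histamine, from 1105, 985, 1048 and 1021 to 631, 792 and 670.2 (-0.58 ± 0.09, adjusted p = 0.0109). The alpi.2 call was lost without T0901317 replicate 1 or 3 or under 2 of the 12 other alternatives (adjusted p 0.0641 to 0.0912). The aoc1 call was lost without T0901317 replicate 1 or under 1 of the 12 other alternatives (adjusted p 0.0518 to 0.0993). Goblet cell and secretory gut genes had no call among 4 measured, and the closest, gcga, read 738, 623, 715 and 780.2 in DMSO and 813, 779 and 887 under T0901317 (0.21 ± 0.09, adjusted p = 0.313). In the exocrine pancreas sycn.2, a zymogen granule protein, fell by 0.61 ± 0.12, adjusted p = 0.0251, while the other 24 measured genes did not pass (median 0.02); this call was lost without T0901317 replicate 1 or 4 or under 2 of the 12 other alternatives (adjusted p 0.0749 to 0.173).

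Among 33 measured plasma protein genes of the liver 3 fell, 0 rose and 30 did not pass (median -0.13), and 10 had a positive change. The fetuin gene ahsg2, whose protein binds calcium phosphate in plasma, read 951, 853, 806 and 819 in DMSO and 283, 342 and 326 under T0901317. This fall, by 1.44 ± 0.17, adjusted p = 0.00129, held under all alternatives. The clotting factor gene f9b read 27.2, 33.9, 32.6 and 30.2 in DMSO and 13.8, 18.3 and 20.2 under T0901317 (-0.84 ± 0.15, adjusted p = 0.0151; -0.26 with normexp), and the complement gene c3a.6 84.8, 89.3, 84.7 and 69.6 in DMSO and 44.0, 58.7 and 55.6 under T0901317 (-0.64 ± 0.14, adjusted p = 0.0443; -0.34 with normexp). The array left out by the authors read 44.2 for f9b, above all DMSO arrays, and with it put back the change was -0.50. The f9b call was lost without DMSO replicate 2 or under 3 of the 12 other alternatives (adjusted p 0.0516 to 0.446). The c3a.6 call was lost without DMSO replicate 1, 2 or 3 or any 1 T0901317 array or GW3965 replicate 1 or 3 or under 6 of the 12 other alternatives (adjusted p 0.0631 to 0.161). The list count was 1 without DMSO replicate 2.

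**Figure D4:**
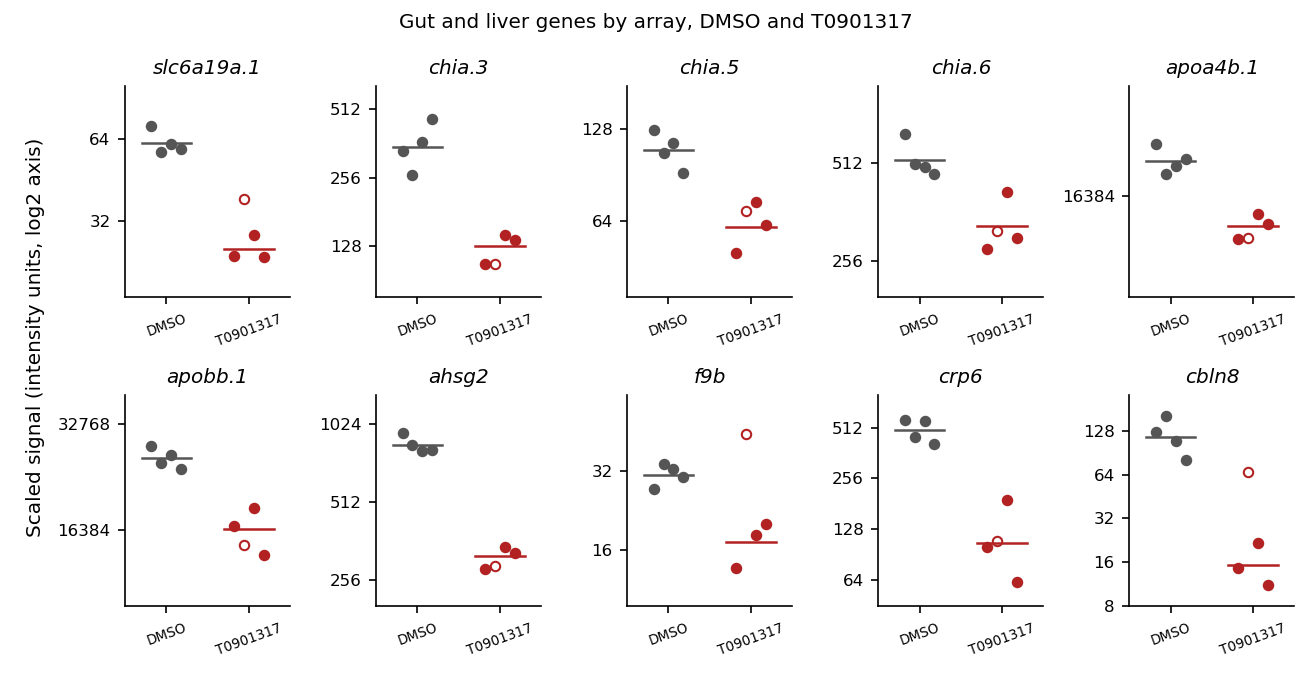
Scaled signal by array (vertical axes, intensity units on a log2 axis) of 10 genes that were lower under T0901317, for DMSO (grey) and T0901317 (red). Filled points are arrays in the fit, the open point is T0901317 replicate 2, which the authors left out, and lines are geometric means of the filled points. The filled groups do not overlap in any panel, as in all 609 called genes. In the panel of f9b the open point lies above all DMSO arrays at 44.2.

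The acute phase list had 2 falls and 0 rises among 10 measured genes. Of the 10, 6 had a positive change and the median was 0.04. C-reactive protein opsonizes microbes, and of its zebrafish genes crp6 read 571, 452, 558 and 410.2 in DMSO and 101, 191 and 62.5 under T0901317, a 4.63-fold fall (-2.21 ± 0.35, adjusted p = 0.00946). The other called member, mfap4.4, a fibrinogen-related lectin gene of a family expressed in macrophages, went from 163, 116, 48.8 and 85.9 to 28.7, 45.2 and 23.5 (-1.59 ± 0.35, adjusted p = 0.0404; -0.77 with normexp). That call was lost without DMSO replicate 1, 2 or 4 or T0901317 replicate 1 or 4 or any 1 GW3965 array or under 6 of the 12 other alternatives (adjusted p 0.0531 to 0.212). The largest fall of any gene with a symbol was cbln8, of the cerebellin family of secreted proteins, which read 124, 161, 108 and 80.9 in DMSO and 14.6, 21.8 and 11.2 under T0901317. It was 7.54-fold lower (-2.91 ± 0.32, adjusted p = 0.000947; -1.14 with normexp).

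The neutrophil and macrophage lists held 1 call each, 7.69% and 4.76% of their measured genes, beside 2.58% of all genes tested. Lysozyme, lyz, went from 216, 203, 213 and 199.7 to 99.7, 117 and 126 (-0.87 ± 0.14, adjusted p = 0.00967), and was the single call among 13 neutrophil genes (median -0.03). The amino acid exchanger slc7a7, which marks macrophages and microglia in the larva, read 625, 606, 631 and 609 in DMSO and 359.9, 407 and 440.4 under T0901317 (-0.62 ± 0.09, adjusted p = 0.00462) and was the single call among 21 macrophage genes (median 0.04). The lyz call was lost under 1 of the 12 other alternatives (adjusted p = 0.0636). The chemokine gene cxcl19 fell by 1.21 ± 0.14, adjusted p = 0.00172 (-0.46 with normexp), from 58.9, 62.6, 47.4 and 66.4 to 22.4, 26.6 and 27.1. A relative, cxcl20, which was added after its values were seen, rose by 0.80 ± 0.15, adjusted p = 0.0247, and its call was lost without DMSO replicate 2, 3 or 4 or T0901317 replicate 1 or 3 or under 1 of the 12 other alternatives (adjusted p 0.0536 to 0.0975). No gene was called among 10 lymphocyte and 17 cytokine genes. At an unadjusted p the closest were cd4-1 (0.58 ± 0.20, adjusted p = 0.185) and the interferon response gene mxa (0.63 ± 0.22, adjusted p = 0.203).

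Jacalin lectins bind sugars, and 2 of 5 measured members rose. The signals of jac9 were 13.1, 15.4, 22.3 and 19.5 in DMSO and 82.5, 159 and 80.9 under T0901317, a 5.93-fold rise (2.57 ± 0.34, adjusted p = 0.003). Those of its neighbour in the genome jac8 were 37.5, 37.1, 40.9 and 53.0 in DMSO and 126, 207 and 126 under T0901317 (1.83 ± 0.26, adjusted p = 0.00457). For both, T0901317 replicate 3 was the highest array, and without any 1 array both calls held. With normexp the values were 1.12 and 0.98. A further member, jac6, had a change of 1.84 ± 0.44 and did not pass (adjusted p = 0.057). Probes of related lectins may bind each other's transcripts, which was not tested.

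The eye was represented by lens, photoreceptor and pineal genes. Among 3 measured gamma S crystallins crygs2 and crygs3 rose. The signals of crygs2 were 7.87, 12.7, 9.86 and 11.08 in DMSO and 99.7, 91.3 and 92.4 under T0901317, a 9.24-fold rise (3.21 ± 0.18, adjusted p = 6.68e-06), and the DMSO value was well above background on 3 of 4 arrays. With normexp its change was 1.19. Those of crygs3 were 282, 244, 339 and 256 in DMSO and 606, 499.8 and 682 under T0901317 (1.09 ± 0.14, adjusted p = 0.00312), a call that was lost under 1 of the 12 other alternatives (adjusted p = 0.0608), and crygs4 did not pass (-0.12). The other crystallins and lens genes held 1 call among 55 measured (1.82%, beside 2.58% of all genes tested), 41 had a positive change and the median was 0.06. The called gene was the lens membrane gene lim2.2 (0.41 ± 0.07, adjusted p = 0.0174). Gamma S crystallins were listed apart from the other lens genes with earlier results of these data known. The counts of these lists therefore cannot show that a rise is particular to gamma S crystallins. The call of lim2.2 ended without DMSO replicate 2 or T0901317 replicate 4 or under 3 of the 12 other alternatives (adjusted p 0.0574 to 0.144).

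Phototransduction and visual cycle genes had 4 falls, 0 rises and 47 that did not pass, with 12 of 51 positive and a median of -0.22. The falls were guca1b, guca1d and guca1g, whose proteins restore the light-sensitive messenger in photoreceptors by activating guanylate cyclase, and rcvrna, a recoverin gene. Signals of guca1g were 193, 245, 242 and 216 in DMSO and 131, 118 and 147 under T0901317 (-0.77 ± 0.13, adjusted p = 0.016). Signals of rcvrna were 564, 707, 744 and 721 in DMSO and 477, 422 and 471 under T0901317 (-0.58 ± 0.11, adjusted p = 0.0269). For guca1d the change was -0.91 ± 0.19, adjusted p = 0.0341 (-0.44 with normexp). The gene guca1b was not well above background on any T0901317 array. With these arrays set to their lowest signals well above background, the mean fall was 1.75-fold, which ignores the spread between arrays. Measured signals of guca1b were 9.69, 11.4, 16.4 and 25.02 in DMSO and 4.23, 2.79 and 5.64 under T0901317 (adjusted p = 0.0258, and -0.19 with normexp). The array left out by the authors read 44.1 for guca1b, above every DMSO array, and with it put back the change was -0.99.

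None of these photoreceptor calls was firm. The guca1g call was lost without DMSO replicate 2 or T0901317 replicate 1 or 3 or under 1 of the 12 other alternatives (adjusted p 0.0528 to 0.0815). For rcvrna this was without DMSO replicate 2, 3 or 4 or any 1 T0901317 array or under 4 of the 12 other alternatives (adjusted p 0.0559 to 0.155). For guca1d it was without DMSO replicate 2, 3 or 4 or T0901317 replicate 3 or 4 or GW3965 replicate 3 or under 5 of the 12 other alternatives (adjusted p 0.0516 to 0.194), and for guca1b without DMSO replicate 2 or 3 or T0901317 replicate 1 or 3 or under 4 of the 11 other alternatives (adjusted p 0.0503 to 0.541). The count of the list was 11 without DMSO replicate 1, 2 without DMSO replicate 4, and 1 without DMSO replicate 2 or 3 or T0901317 replicate 1 or 3, and it was 0 with the excluded array put back. Of 7 opsins, the light-absorbing proteins, rhol fell by 0.69 ± 0.16, adjusted p = 0.0458. Its call was lost without DMSO replicate 2, 3 or 4 or any 1 T0901317 array or GW3965 replicate 3 or 4 or under 5 of the 12 other alternatives (adjusted p 0.0637 to 0.201). The retinal transcription factor gene rx2 went from 253, 326, 326 and 320.1 to 179.9, 132 and 199 (-0.86 ± 0.15, adjusted p = 0.0139) and was no longer called under 3 of the 12 other alternatives (adjusted p 0.0533 to 0.0649).

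In the pineal list 2 of 12 measured genes rose. In the pineal gland aanat2 encodes the enzyme whose product is turned into melatonin, and it read 427, 501, 469 and 557 in DMSO and 1805, 1762 and 1552 under T0901317. All T0901317 arrays were far above the highest DMSO array, and the rise was 1.81 ± 0.10, adjusted p = 6.68e-06. The retinal form aanat1 read 156, 169.7 and 168 in DMSO and 306, 252 and 229 under T0901317, with DMSO replicate 1 missing because its spot was rejected as an outlier (0.66 ± 0.14, adjusted p = 0.0428). Its call was lost without DMSO replicate 2, 3 or 4 or any 1 T0901317 array or GW3965 replicate 1 or 3 or under 5 of the 11 other alternatives (adjusted p 0.055 to 0.14). Among 37 clock genes 1 was called, per3 (0.48 ± 0.11, adjusted p = 0.0433), whose other probe had the opposite sign (-0.11), and the mean over its probes was 0.18. The per3 call was lost without any 1 DMSO array or T0901317 replicate 1 or 4 or GW3965 replicate 1, 3 or 4 or under 5 of the 12 other alternatives (adjusted p 0.0534 to 0.549). The median of the clock list was 0.08.

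Genes of xenobiotic metabolism held 1 rise and 1 fall among 54 measured (median -0.06). The cytochrome P450 gene cyp2x10.2 read 361, 322, 342 and 279 in DMSO and 1262, 1260.3 and 748 under T0901317 (1.71 ± 0.18, adjusted p = 0.000743). Its neighbour in the genome, si:dkey-286h2.3, of unknown role, read 261, 211, 246 and 222 in DMSO and 916, 946 and 621 under T0901317 (1.80 ± 0.18, adjusted p = 0.00051). Both genes were lowest under T0901317 on replicate 4, and both calls held under all alternatives. The fall was cyp2p9 (-1.28 ± 0.27, adjusted p = 0.0358; -0.21 with normexp), a call that was lost without any 1 DMSO array or T0901317 replicate 1 or 3 or GW3965 replicate 1 or 3 or under 3 of the 11 other alternatives (adjusted p 0.0548 to 0.203). Sulfotransferase sult2st1, which conjugates steroids and bile alcohols, rose from 1321, 1199.5, 1091 and 1242 to 1924, 2125 and 2385 (0.82 ± 0.10, adjusted p = 0.00142) and was the single call among 14. No call was made among 31 genes of the Nrf2 and oxidative stress response (median 0.11) or 20 heat shock genes (median 0.02). Of 34 genes of the unfolded protein and integrated stress response, atf5a was called (0.51 ± 0.11, adjusted p = 0.0341; 0.21 with normexp and 0.86 with the excluded array put back), and that call was lost without DMSO replicate 1, 3 or 4 or any 1 T0901317 array or under 9 of the 12 other alternatives (adjusted p 0.0501 to 0.186).

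At the adjusted p of 0.05, 0 genes were called among 29 neuron genes (median 0.03), 40 of DNA replication and cell division (0.09), 31 of the epidermis (0.14), 20 of the endothelium (0.11), 13 of the heart (0.0023), 13 of pigment cells (0.16), 12 of the endocrine pancreas (0.17) or 13 of gluconeogenesis and glucose sensing (0.04). The same held for 10 genes of the thyroid axis (-0.12), 19 of steroid and glucocorticoid signalling (0.11) and 21 of the pituitary and hypothalamus (0.05). Changes were positive in 28 of 31 epidermis, 33 of 40 cell division, 17 of 29 neuron and 3 of 10 thyroid axis genes, beside 13946 of all 23645 genes tested. Over all genes tested 2.58% were called, so 0 calls in lists this short say little about their members. The closest members were elavl3 (0.43 ± 0.18, adjusted p = 0.307) for neurons, tk1 (0.58 ± 0.19, adjusted p = 0.162) for cell division, krt17 (0.33 ± 0.10, adjusted p = 0.126) for the epidermis and angpt2b (0.92 ± 0.24, adjusted p = 0.0847) for the endothelium, and angpt2b was called with normexp (0.65, adjusted p = 0.0121). For the remaining lists they were nkx2.5 (0.51 ± 0.21) in the heart, gch2 (0.45 ± 0.11) in pigment cells, sst2 (0.45 ± 0.14) in the endocrine pancreas and fbp1b (-0.30 ± 0.08) in gluconeogenesis. They were slc5a5 (-0.57 ± 0.21) in the thyroid axis, nr5a1b (-0.37 ± 0.12) in the steroid list, prl (-0.89 ± 0.27) in the pituitary, gpx4b (0.33 ± 0.10) in the oxidative stress list and hspb11 (0.50 ± 0.21) among the heat shock genes, all with an adjusted p above 0.05. Some alternatives did make a call in these lists. With normexp this was nr5a1b (adjusted p = 0.0442) and gch2 (adjusted p = 0.0407), and gch2 was also called without GW3965 replicate 4 (adjusted p = 0.0398). Without T0901317 replicate 3 it was prl (-1.23, adjusted p = 0.0299), and with quantile normalization fbp1b (adjusted p = 0.0282). Besides these members, 1 gene each of the endocrine pancreas and oxidative stress lists was called with normexp, and 1 of gluconeogenesis without T0901317 replicate 4.

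The respiratory chain subunit gene cox6a2, of the form found in muscle, went from 1862, 1458, 1402 and 1565 to 2964, 3286 and 3513 (1.06 ± 0.11, adjusted p = 0.00051), while the other 59 measured subunits did not pass and the median was 0.06. Its call held under all alternatives. The slow muscle myosin smyhc1 fell by 0.52 ± 0.08, adjusted p = 0.00998 (-0.33 with its probes averaged), the calcification inhibitor mgp rose by 0.91 ± 0.15, adjusted p = 0.0109 (0.53 with normexp), and the larval globin hbbe2 rose by 0.81 ± 0.16, adjusted p = 0.0255. The sodium pump subunit genes of ionocytes and kidney atp1a1a.4 (-0.62 ± 0.13, adjusted p = 0.0318; -0.33 with its probes averaged) and atp1a1a.2 (-0.56 ± 0.11, adjusted p = 0.0264) fell. In the hypoxia list ndrg1a rose (0.37 ± 0.07, adjusted p = 0.0254) and egln3 fell (-0.94 ± 0.18, adjusted p = 0.0224; -0.28 with normexp and -0.48 with its probes averaged). Calls numbered 1 of 40 skeletal muscle, 1 of 28 skeleton, 1 of 18 erythroid, 2 of 26 ionocyte and kidney and 2 of 15 hypoxia genes. The list medians were 0.05, 0.03, 0.20, 0.05 and 0.19, so the called muscle and ionocyte falls went against their list medians. Over all genes tested 2.58% were called. The smyhc1 call was lost under 2 of the 12 other alternatives (adjusted p = 0.103), and that of mgp under 1 of the 12 other alternatives (adjusted p = 0.0881). The hbbe2 call was lost without DMSO replicate 2 or 4 or any 1 T0901317 array or under 3 of the 12 other alternatives (adjusted p 0.0509 to 0.123). For atp1a1a.4 this was without DMSO replicate 1, 3 or 4 or T0901317 replicate 1 or 4 or GW3965 replicate 3 or under 3 of the 12 other alternatives (adjusted p 0.0504 to 0.284). For atp1a1a.2 it was without DMSO replicate 1, 2 or 3 or T0901317 replicate 1 or 4 or under 2 of the 12 other alternatives (adjusted p 0.051 to 0.144). The ndrg1a call was lost without DMSO replicate 2 or 3 or any 1 T0901317 array or under 3 of the 12 other alternatives (adjusted p 0.0522 to 0.102). The egln3 call was lost without DMSO replicate 2 or 3 or T0901317 replicate 1 or 4 or under 3 of the 12 other alternatives (adjusted p 0.0553 to 0.337).

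Further genes among the 25 largest rises and falls are given by value. Of the rises, si:ch211-81a5.8 read 411, 624, 486 and 669 in DMSO and 2053, 1996 and 1717 under T0901317 (1.83 ± 0.16, adjusted p = 0.000165) and zgc:171470 rose by 1.39 ± 0.13, adjusted p = 0.000269. No role is annotated for these 2 in the files. Of the falls, etnppl, whose enzyme degrades phosphoethanolamine, read 497, 495, 543 and 407 in DMSO and 273, 289.8 and 188 under T0901317 (-0.97 ± 0.17, adjusted p = 0.0171), and rh50, of the Rhesus glycoprotein family, fell by 1.05 ± 0.23, adjusted p = 0.0442. The aldehyde reductase gene akr1a1a fell by 1.05 ± 0.19, adjusted p = 0.021, the ectonucleotidase gene nt5e by 0.99 ± 0.16, adjusted p = 0.0119, the acyl-CoA thioesterase gene acot14 by 0.84 ± 0.12, adjusted p = 0.00606, and adoa, of the thiol dioxygenase type, by 0.86 ± 0.15, adjusted p = 0.0152. The etnppl call was lost without DMSO replicate 2 (adjusted p = 0.053). The rh50 call was lost without any 1 DMSO array or T0901317 replicate 1 or 4 or GW3965 replicate 1, 2 or 3 or under 5 of the 12 other alternatives (adjusted p 0.0588 to 0.113). The akr1a1a call was lost without DMSO replicate 2 or 3 or T0901317 replicate 1 or 4 (adjusted p 0.0565 to 0.0788). For nt5e this was without T0901317 replicate 1 or 4 or under 2 of the 12 other alternatives (adjusted p 0.0506 to 0.427). For acot14 it was under 2 of the 12 other alternatives (adjusted p 0.151 to 0.353), and for adoa without DMSO replicate 2 or T0901317 replicate 4 or under 3 of the 11 other alternatives (adjusted p 0.0516 to 0.761). The small GTPase gene arl3l2, with T0901317 replicate 1 missing because its spot was rejected as an outlier, fell by 1.04 ± 0.19, adjusted p = 0.0258. Its call was lost without DMSO replicate 2 or 3 or T0901317 replicate 3 or 4 or under 5 of the 11 other alternatives (adjusted p 0.0671 to 0.186). The gene zgc:101716, without an annotated role in the files, fell by 0.84 ± 0.16, adjusted p = 0.0255. It was no longer called without DMSO replicate 2 or 3 or any 1 T0901317 array or under 2 of the 12 other alternatives (adjusted p 0.0638 to 0.46). With normexp the changes were -0.34 for nt5e, -0.30 for acot14, -0.07 for adoa, -0.26 for arl3l2 and -0.15 for zgc:101716. The change of acot14 with its probes averaged was -0.34, and with the excluded array put back that of nt5e was -0.60 and that of zgc:101716 -0.50.

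The T0901317 arrays were also tested against the GW3965 arrays in the same fit. Of all genes tested 5.4% were called there, 1276 genes, and 820 without T0901317 replicate 1. The labelled doses of the agonists differ, and the GW3965 arrays lay on a slide of their own. Compound, dose and slide therefore cannot be told apart in any difference given here. For 5 lipid genes that rose against DMSO, picked without a rule, no difference passed. The T0901317 minus GW3965 change was 0.18 ± 0.11, adjusted p = 0.591 for fads2, 0.38 ± 0.19, adjusted p = 0.437 for pltp, 0.41 ± 0.13, adjusted p = 0.121 for elovl2, 0.34 ± 0.15, adjusted p = 0.332 for hmgcra and -0.0056 ± 0.14, adjusted p = 0.994 for mylipa. Their 95% intervals, not adjusted for the number of genes, were -0.07 to 0.43 for fads2, -0.04 to 0.80 for pltp, 0.13 to 0.70 for elovl2, 0.02 to 0.67 for hmgcra and -0.31 to 0.30 for mylipa. Other lipid genes did differ, among them fabp4b and pcyt1bb, which had risen more against DMSO than mylipa. Signals of apoea were 1383, 1528, 1308 and 1592 on the GW3965 arrays, between the other groups, and the difference was -0.76 ± 0.08, adjusted p = 0.000342. For fabp4b they were 265, 514, 327 and 475 (1.24 ± 0.23, adjusted p = 0.00753), for srebf1 117, 125, 104 and 106 (0.63 ± 0.13, adjusted p = 0.019), and for sc5d 578, 470.2, 516 and 461 (0.48 ± 0.11, adjusted p = 0.0309). These differences ended for fabp4b under 1 of the other alternatives (adjusted p = 0.0582), for srebf1 without T0901317 replicate 1 or 4 or GW3965 replicate 3 or 4 or under 2 of the other alternatives (adjusted p 0.055 to 0.494) and for sc5d without any 1 T0901317 array or GW3965 replicate 2, 3 or 4 or under 3 of the other alternatives (adjusted p 0.0546 to 0.144). With probes averaged the srebf1 difference was 0.34. Differences were also called for pcyt1bb (0.57, adjusted p = 0.0218), apoa4b.1 (-0.40, adjusted p = 0.0144), apoa4b.2 (-0.44, adjusted p = 0.0033) and apobb.1 (-0.41, adjusted p = 0.0457). That of pcyt1bb ended without T0901317 replicate 1 or 3 or GW3965 replicate 2 or 4. With replicate 4 of every group left out those of apoa4b.1, apoa4b.2 and apobb.1 ended. The apobb.1 difference also ended without any 1 DMSO or GW3965 array.

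Several genes outside the lipid lists separated the agonists more widely. Of these, crygs3, ext1a, ftr86, nr6a1a, uck1 and castor1 were taken as the 6 called genes with the smallest adjusted p in this contrast. Their wide separation follows from that choice. The GW3965 arrays read 19.2, 9.28, 12.01 and 22.3 for jac9 and 36.9, 30.0, 23.2 and 49.2 for jac8, which overlapped DMSO, and T0901317 was higher by 2.79 ± 0.34, adjusted p = 0.00057 and 2.15 ± 0.26, adjusted p = 0.000542. For crygs2 the GW3965 arrays read 65.2, 53.0, 42.3 and 62.3, above DMSO, and T0901317 was still higher (0.78 ± 0.18, adjusted p = 0.0252). For crygs3 they read 130.2, 161, 128 and 127, below every DMSO array, so that T0901317 was higher by 2.12 ± 0.14, adjusted p = 7.25e-05. The glycosyltransferase gene ext1a, which builds heparan sulfate chains, read 474, 390.3, 523 and 378 in DMSO and 1145, 924 and 1136 under T0901317 and rose by 1.28 ± 0.13, adjusted p = 0.000666, while GW3965 arrays stood at 205, 218, 180.3 and 181 (2.44 ± 0.13, adjusted p = 5.37e-05). The finTRIM gene ftr86 read 468, 354, 453 and 608 in DMSO and 827, 707 and 806 under T0901317 (0.75 ± 0.17, adjusted p = 0.0456) and 149, 119.7, 138 and 168 under GW3965 (2.45 ± 0.17, adjusted p = 7.42e-05). Similar splits were seen for the nuclear receptor gene nr6a1a (1.69 ± 0.11, adjusted p = 6.36e-05), the pyrimidine nucleoside kinase gene uck1 (1.72 ± 0.12, adjusted p = 7.25e-05) and the arginine sensor gene castor1 (1.29 ± 0.10, adjusted p = 8.24e-05).

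These genes rose against DMSO by 0.59 ± 0.11, adjusted p = 0.0199 for nr6a1a, 0.81 ± 0.12, adjusted p = 0.00511 for uck1 and 0.55 ± 0.10, adjusted p = 0.0151 for castor1 (0.36 with normexp). The nr6a1a call against DMSO was lost without DMSO replicate 2 or T0901317 replicate 1 or 4 or under 2 of the 12 other alternatives (adjusted p 0.056 to 0.0811). The uck1 call was lost under 2 of the 12 other alternatives (adjusted p 0.0748 to 0.0955), and that of castor1 without T0901317 replicate 1 or 4 or under 2 of the 12 other alternatives (adjusted p 0.0525 to 0.0762). The ftr86 call was lost without DMSO replicate 1, 2 or 3 or any 1 T0901317 array or GW3965 replicate 1 or 3 or under 7 of the 12 other alternatives (adjusted p 0.0509 to 0.153). The other probe of uck1 had the opposite sign (-0.19). With the probes of a gene averaged, the change against DMSO was 0.52 for ext1a, 0.48 for ftr86 and 0.31 for uck1. For crp6 the GW3965 arrays read 438, 416, 503 and 239 and the difference was -1.85 ± 0.35, adjusted p = 0.00866, and for cbln8 they read 45.5, 90.9, 47.3 and 40.3 with a difference of -1.80 ± 0.32, adjusted p = 0.00665. The call of a difference between the agonists held under all alternatives for jac8, jac9, ext1a, ftr86, crygs3, nr6a1a, uck1, castor1, apoea and crp6. It ended for cbln8 under 2 of the other alternatives (adjusted p 0.0636 to 0.233) and for crygs2 without any 1 T0901317 array or GW3965 replicate 2 or 3 or under 2 of the other alternatives (adjusted p 0.0542 to 0.118). Sizes depended on the processing. With normexp the differences were 1.15 for jac9, 1.02 for jac8, 0.78 for castor1, 0.43 for crygs2 and -0.55 for cbln8. With probes averaged they were 0.93 for ext1a, 0.77 for ftr86 and 0.89 for uck1.

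**Figure D5:**
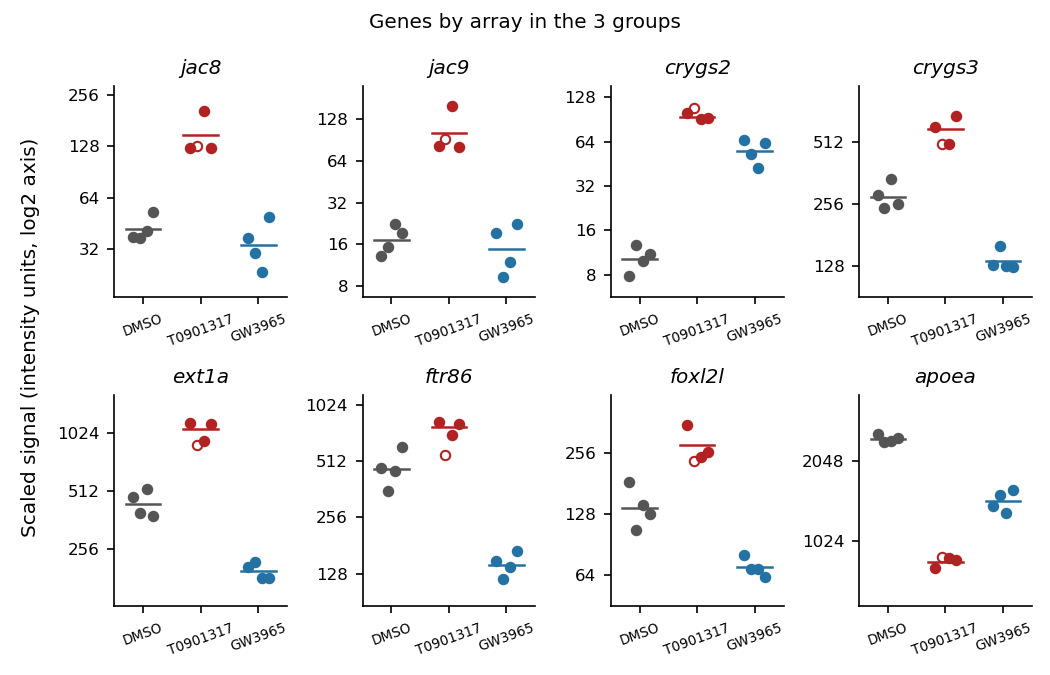
Scaled signal by array (vertical axes, intensity units on a log2 axis) of 8 genes in DMSO (grey), T0901317 (red) and GW3965 (blue). Filled points are arrays in the fit, the open point is T0901317 replicate 2, which the authors left out, and lines are geometric means of the filled points. In the panels of jac8 and jac9 the GW3965 arrays overlap the DMSO arrays, and in those of crygs3, ext1a, ftr86 and foxl2l they lie below them.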

How the data were processed

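RNA of 12 larval pools was measured on 1-colour Agilent 44K zebrafish arrays. The deposited files are the output of Agilent Feature Extraction 11.0.1.1 per the submitters' processing notes, and, per the file headers, the intensity used is the processed signal, already corrected for background by that software. The design build of the array is Zv8 per the file headers. Of 43603 probes, 25069 were named, for 12858 genes, through a RefSeq table of assembly GRCz12tu used for names and for which genes neighbour each other, 18534 had no symbol, and 9257 of these carried an Ensembl identifier alone. Control spots were left out and spots marked as outliers were set as missing.

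The deposited intensity was converted to log2 and the 75th percentile of each array was subtracted. Probes were kept where at least 3 of the 11 arrays of the fit were well above background, and the brightest probe stood for a gene. Groups were compared with limma 3.58.1 (lmFit and eBayes) in R 4.3.3 on 3 group means, with p values adjusted by Benjamini-Hochberg over all 23645 genes and a call at an adjusted p under 0.05. On data simulated from these arrays the fit for T0901317 against DMSO recovered 34%, 76%, 88% and 96% of genes changed by 0.5, 1, 1.5 and 2 on the log2 scale. There were 50 changed genes of each size, and 6 calls were false. The simulated noise was independent between arrays and held no slide effect. These shares therefore do not give the power of a design in which slide and treatment coincide. The number of arrays limits the precision. The 52 gene lists are described by counts and medians, with no set test. The alternatives were normexp (offset 50, on the median spot and local background signals), other scalings, filters, probe summaries and variance models, a replicate block, the return of the excluded array, and each array left out.

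The comparison and the gene lists were chosen with earlier results of these data known. Genes were named by rule: among called genes with a symbol, whose groups did not overlap and which were well above background throughout 1 group, the 25 largest rises and 25 largest falls were taken. Called members of the lipid lists, up to 4 called members of each other list, the closest member of a list without a call, and the 6 called genes with the smallest adjusted p for T0901317 against GW3965 were added. The families of chitinases, pantothenate kinases, acyl-CoA synthetases, serine palmitoyltransferases, cholesterol hydroxylases and egg coat proteins, and the genes alpi.2, aoc1, abcd3a, pank1a, pank1b, sptlc2a, sptlc2b and others said to be so, were chosen after their values were seen. Values of T0901317 against GW3965 come from the fit without a replicate block. Deviations of same-numbered arrays from their group means correlated at 0.132, 0.28 and 0.498 for numbers 1, 3 and 4. For replicate 1 a GW3965 array of another number reached 0.16. A fit with the replicate number as a block changed no call of that contrast given in the text. The labels call the replicates biological. Sequences were not used here, and some members of the lists are not reported here by name.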

Additional observations from a re-analysis of the deposited data

Results flagged for a closer look

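In 12 of 139 named genes, 1 of the 4 DMSO arrays stood apart from the other 3 by more than the 95% critical value of Dixon's test. Chance gives this in about 1 of 20 groups. The array that stood apart was the highest of its group at a scaled signal of 157.3 for fabp4b, 116.2 for mgp, 277.8 for tm7sf2 and 61.88 for fdft1. It was the lowest at 82.56 for pcyt1bb, 1103 for acsl4a, 1809 for nr5a1b, 231.1 for elovl8a, 50.33 for acot14, 15.57 for adoa, 253.4 for rx2 and 22.38 for cyp2p9.

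The array that the authors left out, T0901317 replicate 2, was outside the DMSO range on the side of the call for 91 of the 104 named genes that were called against DMSO. Over all 609 called genes it was so for 482 (79.1%), beside 44.7% of all genes tested, where the side was that of the other T0901317 arrays. Its correlation with the other arrays was 0.951 to 0.957.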

How the results depend on the processing

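Against the 609 called genes (373 higher, 236 lower), the count was 161 at an adjusted p under 0.01, 133 with a 2-fold minimum, 932 when every probe was tested, 396 (129 lower) with the excluded array put back, 287 (180 higher, 107 lower) with the 2 compared groups alone in the fit and 168 (116 higher, 52 lower) without replicate number 4 in all groups. Leaving out each array in turn gave 258 to 615 called genes, 161 to 387 higher and 96 to 228 lower. With normexp 529 genes were called, 393 of them among the 609. Of 104 named called genes, 43 kept the call under all alternatives and 0 changed direction while the rest lost it under at least 1 alternative, and the cause was not tested. For T0901317 against GW3965 the count was 1276, with 809 under normexp, 693 without replicate number 4 in all groups and 820 to 1275 on leaving out each array. The alternative without number 4, and those of T0901317 against GW3965 other than the block, were chosen after the data were seen.

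Same-numbered T0901317 and DMSO arrays are linked in their titles by the number alone. Their deviations from the group means correlated at 0.0256, 0.134 and 0.463 for numbers 1, 3 and 4. The value for number 4 was the highest of any pair of a T0901317 and a DMSO array, and its source was not tested. The fit with the replicate number as a block called 591 genes (352 higher, 239 lower), 422 of them among the 609, and T0901317 replicates 1 and 3 did not correlate best with their own number. With that block the count for T0901317 against GW3965 was 1257. The slide as a block and the search for promoter motifs were not run, since each slide held 1 group and no promoter table was used. With normexp, changes of genes with signals near background were smaller, as given beside them. The offset of 50 added to every signal shrinks the changes of dim probes by itself. A smaller change of a dim gene with normexp is therefore no separate estimate of its size.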

Other observations

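Genes known from the gonad and the egg were chosen after their values were seen and are given by value. The gene foxl2l, which marks female germ cells in zebrafish, read 184, 106, 142 and 129 in DMSO and 352, 243 and 259.6 under T0901317 and 80.4, 68.4, 68.9 and 63.0 on the GW3965 arrays (1.03 ± 0.18, adjusted p = 0.0174 against DMSO, 2.01 ± 0.18, adjusted p = 0.000129 against GW3965). The inhibin subunit gene inha read 76.0, 66.4, 79.7 and 104 in DMSO and 119, 159 and 154 under T0901317 and 42.7, 41.8, 33.2 and 47.1 on the GW3965 arrays, a rise of 0.82 ± 0.17, adjusted p = 0.0329 against DMSO and 1.80 ± 0.17, adjusted p = 0.000142 against GW3965. For igf3, a fish gonad growth factor, the values were 29.9, 21.6, 23.8 and 37.7 in DMSO and 53.1, 41.7 and 56.3 under T0901317 and 20.2, 16.9, 15.9 and 18.3 on the GW3965 arrays (0.86 ± 0.18, adjusted p = 0.0378 against DMSO, 1.49 ± 0.18, adjusted p = 0.000665 against GW3965). Against DMSO the calls ended for foxl2l without T0901317 replicate 1 or under 2 of the 12 other alternatives (adjusted p 0.059 to 0.106), for inha without DMSO replicate 1, 2 or 3 or T0901317 replicate 3 or 4 or GW3965 replicate 1 or under 3 of the 12 other alternatives (adjusted p 0.0501 to 0.113) and for igf3 without DMSO replicate 1, 2 or 3 or T0901317 replicate 1 or 4 or any 1 GW3965 array or under 5 of the 12 other alternatives (adjusted p 0.0512 to 0.131). With normexp the changes against DMSO were 0.53 for inha and 0.32 for igf3. The calls against GW3965 held under all alternatives tried, with lowest differences of 1.35 for foxl2l, 0.96 for inha and 0.50 for igf3.

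Egg coat genes are transcribed in the oocyte, and 3 of 12 measured rose against DMSO while 0 fell. Of the 12, 7 had a positive change and the median was 0.24. The called rises were zp2l2 (0.74 ± 0.16, adjusted p = 0.0378), zp3f.1 (1.01 ± 0.22, adjusted p = 0.0402) and zp3.1 (0.74 ± 0.17, adjusted p = 0.0498), while zp3a.2 (1.22 ± 0.29, adjusted p = 0.0565) and zp3d.1 (-0.98 ± 0.35, adjusted p = 0.208), the latter with all T0901317 arrays below all DMSO arrays, did not pass. Signals of zp3f.1 were near background, at 4.80, 5.67, 6.21 and 7.82 in DMSO and 10.8, 14.9 and 11.2 under T0901317. All 3 T0901317 arrays but 1 of the 4 DMSO arrays were well above background, so the size of its change is uncertain. With normexp the 3 called changes were 0.28, 0.22 and 0.23, and with its probes averaged that of zp2l2 was 0.37. The zp2l2 call was lost without DMSO replicate 1, 2 or 3 or any 1 T0901317 array or GW3965 replicate 1, 3 or 4 or under 9 of the 12 other alternatives (adjusted p 0.0502 to 0.375). The zp3f.1 call was lost without DMSO replicate 1, 2 or 3 or any 1 T0901317 array or GW3965 replicate 1 or 4 or under 8 of the 11 other alternatives (adjusted p 0.0521 to 0.283). The zp3.1 call was lost without any 1 DMSO array or any 1 T0901317 array or GW3965 replicate 1 or 3 or under 8 of the 12 other alternatives (adjusted p 0.056 to 0.176). Of the 12, 0 were called when the excluded array was returned or replicate 4 of every group was left out. The genes gnrh2 and npvf, of the reproductive axis of the brain, were also chosen after their values were seen. The pituitary and hypothalamus list held 0 calls among 21 measured genes. The gonadotropin-releasing hormone gene gnrh2 read 159, 265, 228 and 308 in DMSO and 528, 382 and 546 under T0901317 (1.04 ± 0.20, adjusted p = 0.0262). The gene npvf, for the precursor of gonadotropin-inhibiting and sleep-promoting peptides, read 104, 119, 113 and 114 in DMSO and 74.98, 71.6 and 86.4 under T0901317 (-0.54 ± 0.09, adjusted p = 0.0099, and -0.33 with normexp). The gnrh2 call was lost without DMSO replicate 2 or 3 or T0901317 replicate 1 or 4 or under 3 of the 12 other alternatives (adjusted p 0.0522 to 0.101), and that of npvf under 2 of the 12 other alternatives (adjusted p 0.0526 to 0.207).

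Of 6529 pairs of genes that neighbour each other among protein-coding genes and were both tested, 10 pairs had both genes called and 8 of these moved the same way. Among them were jac9 with jac8, chia.5 with chia.6, cyp2x10.2 with si:dkey-286h2.3, and gas6 (0.49), which encodes a ligand of receptor kinases, with the anticoagulant gene pros1 (0.49). The pair apoa4a and apoea moved in opposite directions, at 0.89 and -1.55. Probes of related neighbours can bind each other's transcripts, which was not tested.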
